A study of Mus musculus with 18 samples.

Results

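Olfm4 (ENSMUSG00000022026) encodes olfactomedin 4, and it is described here as 1 gene of the 43346 gene identifiers in the count table, taken by its symbol alone, across 18 bulk RNA-seq libraries of sorted Lgr5+ intestinal cells. The cells came from the small intestine (SI) and the large intestine (LI) of untreated C57BL/6 mice, aged 8 to 20 weeks after birth by the labels, whose genotype the labels write as Lgr5_eGFP_Iris_creERT2, a knock-in of eGFP and CreERT2 at the Lgr5 locus. Epcam+ epithelial cells were gated on the GFP made from the Lgr5 locus as high, medium or low, and the study used these gates as proxies for cells in the crypt centre, at the crypt border and beyond the border (row >3). Each of the 6 groups of site and Lgr5 level had 3 libraries, which the study calls biological replicates. All groups therefore shared strain, allele and treatment, and there was no GFP-negative group. The knock-in is known to be expressed in patches of crypts, and its zygosity, the segment of each intestine used for sequencing and the mouse behind each replicate number were not given in the sources used here. A p-value below measures the spread between these libraries.

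Olfm4 is a secreted glycoprotein with an olfactomedin domain at its C-terminal end. In the mouse it marks crypt base columnar cells of the small intestine, the cycling stem cells that sit between Paneth cells, and it is commonly used beside Lgr5 to find them. Its transcription in the intestine is known to depend on Notch signalling, in which a receptor cut by gamma-secretase frees an intracellular domain that binds the DNA-binding protein RBPJ, and on NF-kB in inflamed tissue. Outside the epithelium, neutrophils and their precursors are known to make it.

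In GENCODE M21 on GRCm38/mm10 the gene lies on the plus strand of chr14:79984081-80023139. The annotation gives 2 protein-coding transcripts, Olfm4-201 with 7 exons from position 80000302 and Olfm4-203 with 5 exons from 80000251, and a processed transcript, Olfm4-202, that begins at the gene's annotated start. The union of its exons covers 2962 bases, of which 153 are shared with exons of Gm6999, a lincRNA on the same strand that had between 0 and 17 counts in a library. The 250 bases before the RefSeq start (GRCm38.p6, plus strand, chr14:80000052-80000301) are shown because binding sites of both known regulators were looked for there. The last 51 bases of the window belong to Olfm4-203 in GENCODE. Capitals mark matches to the RBPJ core TGGGAA, to the NF-kB consensus and to the TATA box TATAA, each searched on both strands.
Olfm4 promoter: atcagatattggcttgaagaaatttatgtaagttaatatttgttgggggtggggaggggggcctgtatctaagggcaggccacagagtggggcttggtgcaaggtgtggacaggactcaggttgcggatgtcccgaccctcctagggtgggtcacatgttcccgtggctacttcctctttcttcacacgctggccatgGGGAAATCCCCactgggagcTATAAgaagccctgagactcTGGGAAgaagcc
The RBPJ core lay at -12 to -7 from the RefSeq start and was present in 21.6% of 32851 mouse windows of the same length. The NF-kB consensus matched at -52 to -43 and again, shifted by 1 base, at -51 to -42, and it was present in 7.25% of the windows. TATAA lay at -32 to -28 and was present in 22.8%. These are matches of letters and say nothing of binding in these cells.

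Libraries held between 8312093 and 31940965 counts. The 3 SI libraries labelled replicate 3 stood apart from the other 6 SI libraries. They carried transcripts of the LI: the median of the 8 LI markers that were abundant enough to measure, of 14 listed, was 54.4%, 171% and 163% of the LI mean at centre, border and row >3, against 0.515% to 3.86% in the other SI libraries. Their SI markers were nonetheless present, with a median of 98.0%, 136% and 75.1% of the mean of the other SI replicates. Values below are therefore given with and without these libraries where it matters. Libraries labelled replicate 2 differed from the rest in Y-linked transcripts, with 542 to 1419 counts against at most 1 in the others, at both sites.

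Epithelial markers were high in every group, with a summed level of 57300 to 150127 normalised counts in a library. At SI row >3, 3 of 5 passed as higher than at the SI centre, beside 7.35% of all genes. The sum of 12 immune and stromal markers also moved along the SI gate. From centre to row >3 it went from 496 to 1758 normalised counts in replicate 1, from 367 to 1524 in replicate 2 and from 432 to 276 in replicate 3, and in LI libraries it was 79.3 to 699. The part of these cells in the Olfm4 values was not tested. Of 12 neutrophil markers, 5 had any count, and S100a8, S100a9, Ly6g, Elane and Mpo were at 0 in all 18 libraries. The summed neutrophil level ranged from 0 to 44.9 normalised counts, Ltf alone having any count in more than 2 libraries.

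Olfm4 was among the most abundant transcripts of SI centre cells. At the other SI levels its mean was lower and its spread was larger relative to the mean. In LI Lgr5+ cells Olfm4 was at or near 0 at every Lgr5 level. In SI centre cells it had 82369, 78758 and 17385 normalised counts in replicates 1, 2 and 3, which is counts divided by a size factor per library. It took 0.458% (exact binomial 95% interval 0.456 to 0.461), 0.418% (0.415 to 0.421) and 0.0784% (0.0773 to 0.0795) of all counts in these libraries. Per base of exon it ranked 5, 11 and 48 among 21474 protein-coding genes. The replicate 3 library lay below both others, and the group mean was 59504 ± 36521 (SD, n = 3).

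SI border cells had 24346, 54428 and 1030 normalised counts, a mean of 26602 ± 26771 (SD, n = 3). Replicates 1 and 2 lay within the centre range only because of centre replicate 3, at 17385. Both lay below centre replicates 1 and 2, at 82369 and 78758. Border replicate 3 lay below every centre library. SI row >3 cells had 3733, 8204 and 194 normalised counts, a mean of 4044 ± 4014 (SD, n = 3). All 3 row >3 libraries lay below all centre libraries, while replicates 1 and 2 lay above the border library of replicate 3. In rank per base of exon among protein-coding genes, Olfm4 stood at 33, 15 and 1882 in border cells and at 399, 172 and 7365 in row >3 cells.

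LI centre cells had 0, 79.4 and 23.7 normalised counts from raw counts of 0, 109 and 29. LI border cells had 14.7, 17.5 and 0, and LI row >3 cells 0, 1.52 and 0, the single non-zero value there being 2 counts. The means were 34.4 ± 40.8, 10.7 ± 9.38 and 0.506 ± 0.877 (SD, n = 3 each). A count of 0 allows up to 3 counts, which corresponds to 3.53 normalised counts in LI centre replicate 1, 2.23 in LI border replicate 3, and 2.73 and 2.83 in LI row >3 replicates 1 and 3. These limits and the intervals above cover counting error only, since reads without molecular identifiers are not independent molecules.

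**Figure D1:**
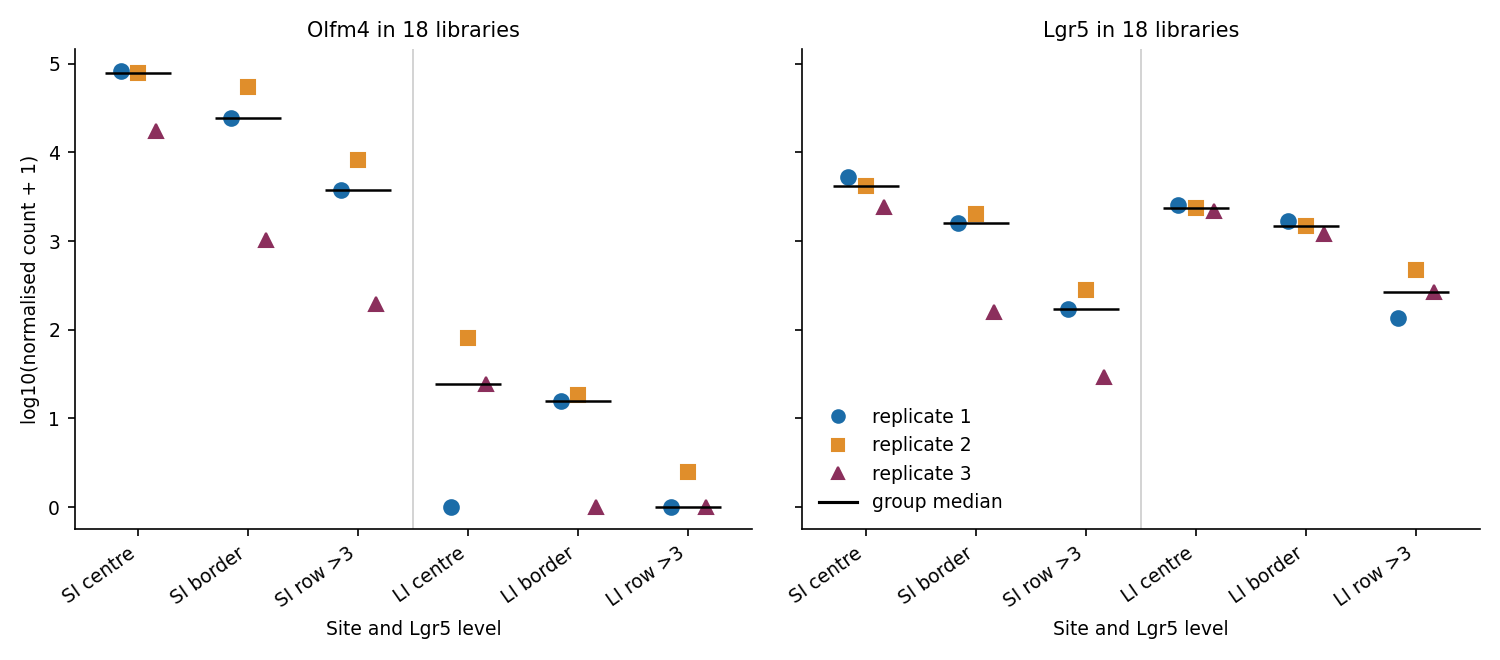
Normalised counts of Olfm4 (left) and Lgr5 (right) in 18 libraries, as log10(normalised count + 1), by site and Lgr5 level; symbols are replicates and black lines group medians. Olfm4 in SI libraries runs from 194 to 82369 and in LI libraries from 0 to 79.4, while Lgr5 declines with the gate at both sites, from 5252 to 28.1 in SI libraries and from 2575 to 134 in LI libraries.

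By mean, the order of the levels was SI centre, SI border, SI row >3, LI centre, LI border and LI row >3. No library of SI row >3 was as low as any LI library: the lowest SI value of all, 194, exceeded the highest LI value, 79.4. Neighbours within a site did not pass the unpaired test over all 18 libraries given below, although SI row >3 against border passed in other fits, and no test was run between SI row >3 and LI centre. On the scale of log2(normalised count + 1), site accounted for 81.7% of the variance of Olfm4 over the 18 libraries, level within a site for 7.52% and the spread between libraries of a group for 10.7%. Within the SI alone, levels accounted for 47.2% and libraries of a level for 52.8%, and replicate numbers by themselves for 47.3%.

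The comparison of sites asks whether Lgr5+ cells of the same gate differ between SI and LI. Olfm4 was higher in the SI at each level. At the centre the log2 fold change was 10.57 ± 1.87 (SE) with an adjusted p of 0.0121 in the quasi-likelihood test of edgeR, adjusted after Benjamini and Hochberg over 26717 genes. At the border it was 11.35 ± 2.03 (adjusted p = 0.0145), and at row >3 it was 12.45 ± 2.53 (adjusted p = 0.0143). All SI libraries lay above all LI libraries at each level. DESeq2 gave log2 fold changes of 10.75, 11.29 and 12.88 with adjusted p values of 9.91e-08, 2.38e-08 and 2.24e-08.

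Few genes had a larger difference between the sites. By absolute log2 fold change Olfm4 ranked 19 of 26717 at the centre, 15 at the border and 11 at row >3. For comparison, 1.99% of all genes passed the test at the centre (1.19% higher and 0.805% lower in the SI), 1.75% at the border and 4.09% at row >3, and the libraries of the sites did not overlap for 18.2%, 15% and 17.6% of genes. Counts were also summed over each group and scaled by the summed size factors of its libraries. The ratio of SI to LI was then 1514 at the centre (exact binomial 95% interval 1282 to 1803, covering counting error only here and below). It was 2678 (1876 to 3970) at the border and 8237 (2280 to 68024) at row >3, where the LI sum was 2 counts.

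These differences kept their direction in every fit run, but their calls depended on which libraries entered. When only the groups compared were fitted, the adjusted p was 0.0540 at the centre (log2 fold change 10.59) and 0.149 at the border (11.37). Without LI centre replicate 2 the adjusted p at the centre was 0.0557 (log2 fold change 12.05), and without LI centre replicate 3 it was 0.0815 (10.33). At the border it was 0.0575 without LI border replicate 1 (11.80), 0.0815 without replicate 2 (11.86) and 0.0970 without replicate 3 (10.64). At row >3 it was 0.112 without LI row >3 replicate 2 (15.02) and 0.0664 without replicate 3 (12.02). When the 3 SI libraries labelled replicate 3 were left out together, the log2 fold changes were 10.99, 11.98 and 13.07 with adjusted p values of 1.10e-05, 1.91e-05 and 4.44e-05.

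**Figure D2:**
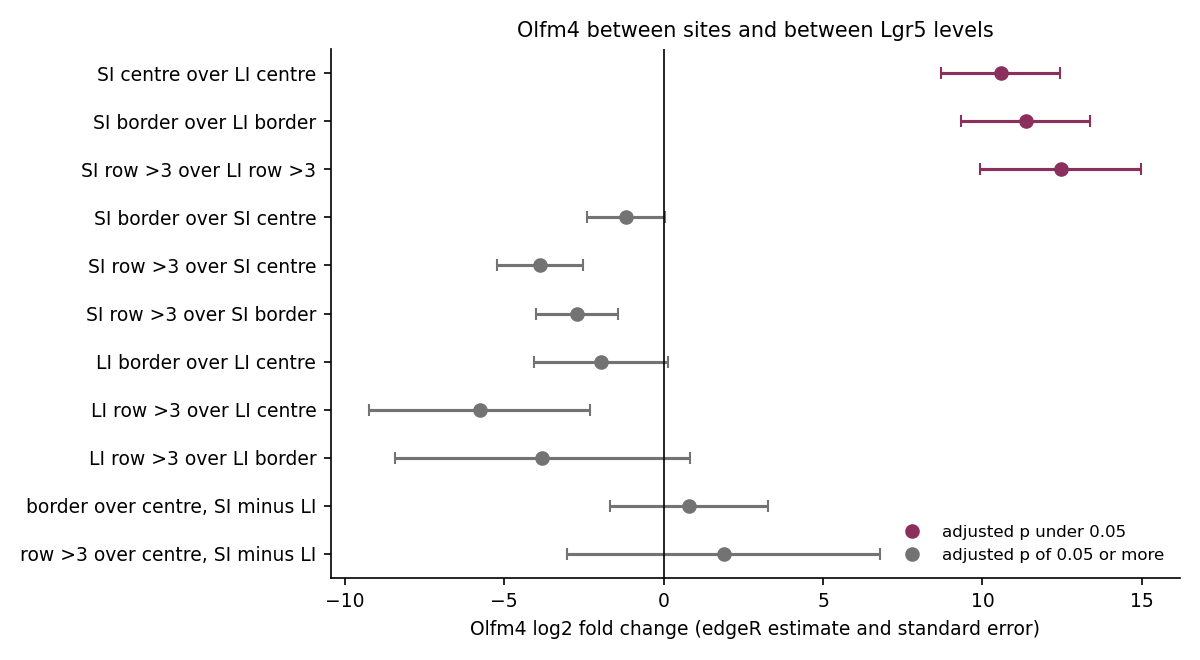
Log2 fold change of Olfm4 (points) with its standard error (bars) for 9 comparisons of groups and 2 differences between sites, from 1 edgeR fit of all 18 libraries; coloured points had an adjusted p under 0.05. The 3 comparisons of SI with LI lie between 10.57 and 12.45 and the comparisons of levels between -5.76 and -1.18.

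Within the SI, the comparison of levels asks how Olfm4 changes with the Lgr5 gate. Its level was lower at row >3 than at the centre in each replicate: row >3 held 4.53%, 10.4% and 1.11% of the centre level in replicates 1, 2 and 3. The fitted log2 fold change was -3.88 ± 1.35 (SE), and with 12 residual degrees of freedom the adjusted p was 0.0850 (unadjusted p = 0.0137), so it did not pass the threshold in a comparison in which 13.2% of genes did (7.35% higher, 5.82% lower) and 24.9% of genes had libraries that did not overlap. When replicate numbers, which pair the libraries of a site, entered as a replicate block within site, the log2 fold change was -4.75 with an adjusted p of 0.00130. Without the SI libraries labelled replicate 3 it was -3.75 (adjusted p = 0.00326) by edgeR, and it did not pass by DESeq2 (-3.75, adjusted p = 0.137). By edgeR it was -4.91 without SI row >3 replicate 2 alone (adjusted p = 0.0845). Without SI row >3 replicate 3 alone it was -3.31 (adjusted p = 0.162). Within a level the libraries spread mainly by replicate number, the row >3 level of replicate 3 being 3.24% of the mean of the other 2 replicates.

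From centre to border the decline was uneven. The border held 29.6%, 69.1% and 5.92% of the centre level, and the log2 fold change of -1.18 ± 1.22 (SE) did not pass (adjusted p = 0.896), in a comparison in which 0.0112% of genes passed and 8.75% did not overlap. It was -2.19 with the replicate block within site (adjusted p = 0.141), -2.28 without SI border replicate 2 (adjusted p = 0.582) and -0.61 without SI border replicate 3 (adjusted p = 1). From border to row >3 the decline was nearly the same in each replicate. Row >3 held 15.3%, 15.1% and 18.8% of the border level, with a log2 fold change of -2.70 ± 1.29 (adjusted p = 0.390), where 1.61% of genes passed and 12.9% did not overlap. It was -1.60 without SI border replicate 2 (adjusted p = 0.817) and -3.73 without SI row >3 replicate 2 (adjusted p = 0.299). With the replicate block within site this step passed (log2 fold change -2.56, adjusted p = 0.0415), and without the SI libraries labelled replicate 3 it passed by edgeR (-2.69, adjusted p = 0.0336) but not by DESeq2 (-2.72, adjusted p = 0.356). In bulk libraries, fewer Olfm4+ cells and less Olfm4 RNA per cell cannot be told apart.

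Within the LI, the few Olfm4 counts were fewer at lower Lgr5 when summed over replicates, but not in each replicate. The groups held 138, 30 and 2 counts in all at centre, border and row >3. Scaled by the summed size factors as above, the centre exceeded the border 4.32-fold (exact binomial 95% interval 2.89 to 6.64, counting error only). On the same scale it exceeded row >3 69.6-fold (18.9 to 580.6). Of the 138 centre counts 109 were in replicate 2, and replicate 1 had none at the centre and 16 at the border.

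Against the spread between libraries these LI differences did not pass in the edgeR fit of all 18 libraries. The log2 fold change was -1.96 ± 2.11 (SE) from centre to border (adjusted p = 1), -5.76 ± 3.46 from centre to row >3 (adjusted p = 0.846) and -3.80 ± 4.61 from border to row >3 (adjusted p = 1). Without LI centre replicate 2 the change from centre to border was -0.49 (adjusted p = 1) and that from centre to row >3 was -4.29 (adjusted p = 1). Without LI row >3 replicate 2 the changes to row >3 were -8.32 from the centre (adjusted p = 0.877) and -6.36 from the border (adjusted p = 1). The change from centre to row >3 passed by DESeq2 without the SI libraries labelled replicate 3 (-6.00, adjusted p = 0.0252). In the LI few or no genes passed edgeR's test at all: 0% (0 genes, with 368 at an unadjusted p under 0.05 and 0 by DESeq2) from centre to border, 0.0187% from centre to row >3 (5 genes, all lower, hence 0% higher, with 1859 at an unadjusted p under 0.05 and 82 by DESeq2), and 0% (0 genes, with 993 at an unadjusted p under 0.05 and 0 by DESeq2) from border to row >3. Libraries did not overlap for 5.6%, 14.7% and 10.8% of genes in these comparisons.

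Whether the change of Olfm4 with level differed between the sites was tested directly. The difference of log2 fold changes, SI minus LI, was 0.79 ± 2.47 (SE) for border against centre and 1.88 ± 4.90 for row >3 against centre, both with an adjusted p of 1. The border difference changed sign with the replicate block within site (-0.50). The row >3 difference was 0.41 without LI centre replicate 2 and 4.44 without LI row >3 replicate 2. No gene passed edgeR's test of either difference (0% and 0% of 26717), with 708 and 1800 genes at an unadjusted p under 0.05 and 2 and 151 genes called by DESeq2. With these standard errors a difference between the sites of several log2 units was not detectable.

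Because the gate was set on the Lgr5 locus, Olfm4 was also measured against Lgr5, which encodes the R-spondin receptor that names these cells. Lgr5 had 5252, 4191 and 2434 normalised counts in SI centre libraries and 2575, 2327 and 2176 in LI centre libraries. It fell from centre to row >3 in the SI (log2 fold change -4.58, adjusted p = 0.00399). At the centre it did not pass between the sites (log2 fold change 0.69, adjusted p = 0.780).

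Per base of exon, the level of Olfm4 was 54.3, 65.1 and 24.8 times that of Lgr5 in SI centre replicates 1, 2 and 3. The ratio was 52.4, 93.0 and 22.8 at the border, and 76.3, 101.7 and 23.9 at row >3. At each level the ratio was lowest in replicate 3 and highest in replicate 2, and in each replicate it was higher at row >3 than at the border, by little in replicate 3. The mean log2((Olfm4 + 1)/(Lgr5 + 1)) of normalised counts, not scaled for length, was 3.68, 3.79 and 4.02 at the 3 SI levels (SD 0.742, 1.02 and 1.13, n = 3). Row >3 minus centre was 0.34 (exact permutation test, two-sided, p = 0.6), border minus centre 0.11 (exact p = 1) and row >3 minus border 0.23 (exact p = 0.7). This test ignores the pairing by replicate number and cannot give a p below 0.1 with 3 libraries against 3, so it does not show whether the levels differ.

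Step by step, Lgr5 at the SI border was 30.7%, 48.4% and 6.44% of the centre and at row >3 10.5%, 13.8% and 17.9% of the border, beside the Olfm4 percentages above. In replicates 1 and 2, Olfm4 kept a larger share of its centre level than Lgr5 did at row >3, 4.53% and 10.4% against 3.23% and 6.67%. In replicate 3 both were at about the same share, 1.11% for Olfm4 and 1.15% for Lgr5. The gates were set on the Lgr5 locus, so the fall of Lgr5 was fixed by the sort and is no neutral reference.

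In the LI the mean log2 ratio was -7.55, -7.76 and -7.55 at centre, border and row >3. Where Olfm4 was at 0 this value is set by the pseudocount of 1. Between the sites the difference was 11.23, 11.55 and 11.57, with libraries that did not overlap. Its size at row >3 depended on the pseudocount, being 12.35 with 0.5 and 9.52 with 5. The exact permutation p was 0.1 for each, the smallest that 3 libraries against 3 can give, and 0.3 after Benjamini-Hochberg adjustment over the 9 comparisons of groups.

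**Figure D3:**
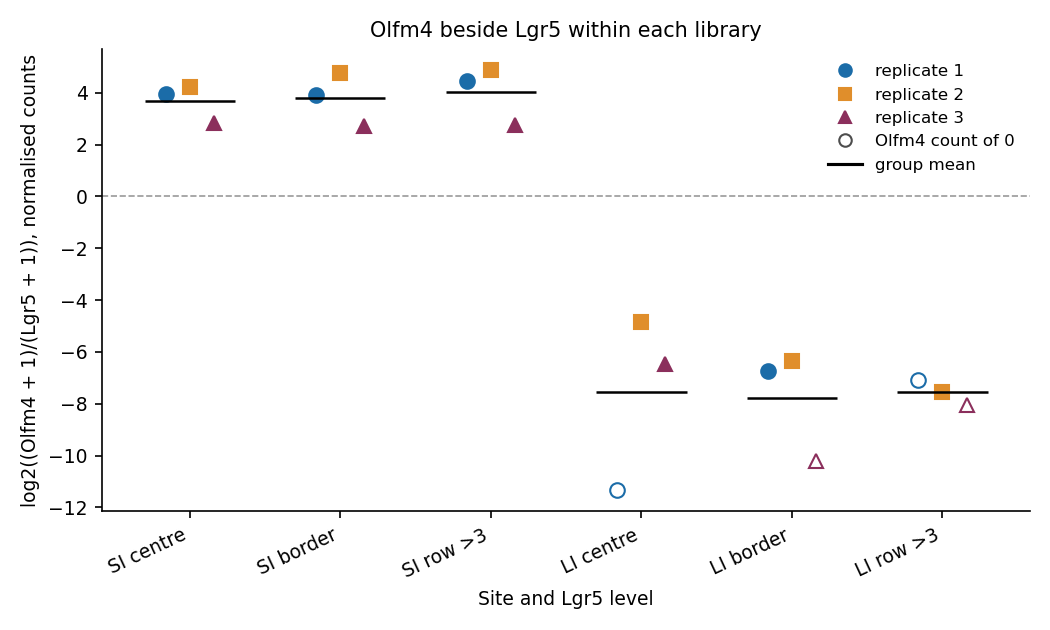
Log2((Olfm4 + 1)/(Lgr5 + 1)) of normalised counts in each of 18 libraries by site and Lgr5 level; lines are group means and open symbols mark libraries in which Olfm4 had no count. SI libraries lie between 2.71 and 4.87 at all levels, with replicate 3 lowest, and LI libraries between -11.33 and -4.86.

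Olfm4 had a larger fitted difference between the SI and LI centres than any of 30 other listed markers of crypt base stem cells. For Gkn3, which had no count in the LI, the fitted log2 fold change of 8.25 does not settle this order. Olfm4 itself was not in the list. Markers that were higher in the SI centre than in the LI centre numbered 4 of 30, beside 1.19% of all genes, with 16 at an unadjusted p under 0.05 and 9 by DESeq2, which also called 1 lower. The median log2 fold change of the list was 0.70, beside 0 over all genes. The 4 were Gkn3, a gastrokine, Nrn1, a neurite growth protein, Pdgfa, a growth factor ligand, and Slc14a1, a urea transporter. Without the SI libraries labelled replicate 3, 18 of the 30 were higher and 1 was lower, in a fit in which the number of all genes passing went from 532 to 2854.

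Gkn3 had no count in the LI. It had 56.7, 41.4 and 10.3 normalised counts in the SI centre and none in any of the 9 LI libraries (adjusted p = 0.0276). Slc14a1 had a mean of 669 normalised counts in the SI centre and 5.37 in the LI centre (log2 fold change 6.65, adjusted p = 0.00291). Ascl2, a Wnt-driven transcription factor of stem cells, was at 287 and 292 (log2 fold change -0.09, adjusted p = 1). Smoc2, a secreted calcium-binding protein, was at 4339 and 1772 (log2 fold change 1.23, adjusted p = 0.535), and it passed without the SI libraries labelled replicate 3 (1.60, adjusted p = 4.74e-06).

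From SI centre to row >3 most of the stem cell list fell. Lgr5, whose locus set the gates, is a member of the list, and its fall was fixed by the sort. Members that fell numbered 27 of 30, beside 5.82% of all genes, with a median log2 fold change of -2.25, and without the SI libraries labelled replicate 3 they numbered 30. The log2 fold change was -3.68 for Ascl2 (adjusted p = 5.01e-05), -4.52 for Gkn3 (adjusted p = 0.0155) and -4.98 for Slc14a1 (adjusted p = 0.00159). The 3 that did not pass with all libraries were Smoc2, Prom1 and Fstl1, and Smoc2 had a log2 fold change of -2.50 (adjusted p = 0.0625) there and of -2.34 (adjusted p = 2.37e-07) without those libraries. The list was chosen with earlier results of these data known, so its direction is no independent evidence.

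In the LI, none of the 30 passed from centre to row >3 by edgeR, with 21 lower at an unadjusted p under 0.05 and 5 called lower by DESeq2. The median log2 fold change was -1.01. Without the SI libraries labelled replicate 3, which changes the estimated spread of the whole fit, 18 of the 30 passed, and the number of all genes passing went from 5 to 497.

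**Figure D4:**
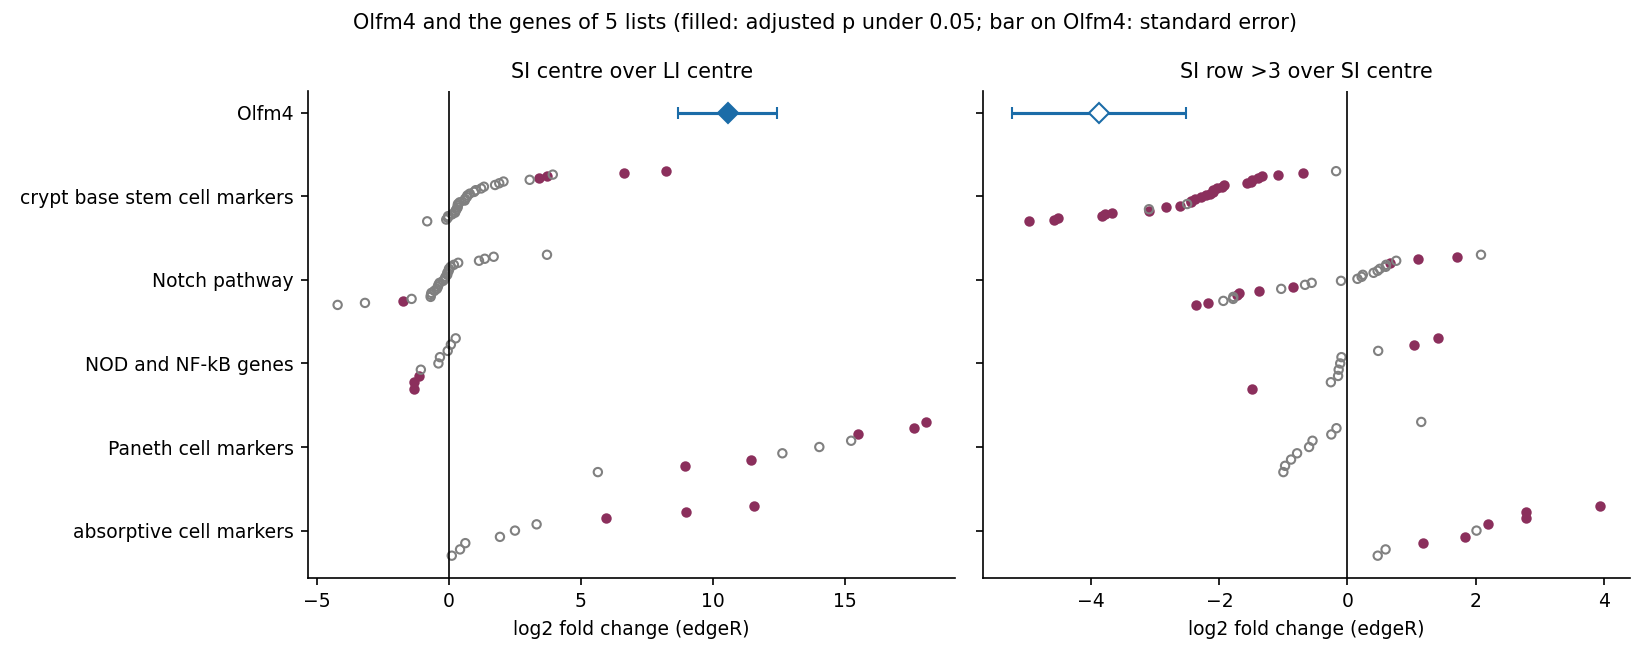
Log2 fold changes of Olfm4 (diamond, with standard error) and of the genes of 5 lists (circles), for SI centre over LI centre (left) and SI row >3 over SI centre (right); filled symbols had an adjusted p under 0.05. Olfm4 at 10.57 lies beyond the fitted values of all 30 stem cell markers on the left and within their range at -3.88 on the right.

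Between the sites a Notch receptor, a target and a ligand passed at some levels. Of 26 listed genes, 1 was lower and none higher in the SI centre by edgeR, beside 0.805% of all genes lower and 1.19% higher, with 2 higher and 7 lower at an unadjusted p under 0.05 and 1 in each direction by DESeq2, and the median log2 fold change was -0.17. Notch1, the main receptor of crypt stem cells, had 3768, 3195 and 3230 normalised counts in the SI centre and 3886, 2599 and 2843 in the LI centre (log2 fold change 0.08, adjusted p = 0.996). At the centre the targets Hes1 and Nrarp were at -0.68 (adjusted p = 0.128) and -0.21 (adjusted p = 0.772). The ligands Dll1 and Dll4 were there at -0.05 (adjusted p = 1) and -0.54 (adjusted p = 0.433). Notch3, the gene that passed, was lower in the SI (log2 fold change -1.73, adjusted p = 0.0247) at a mean of 36.5 normalised counts against 117. At the other levels Notch3 and Hes1 passed as lower in the SI, beside 1.75% of all genes passing at the border and 4.09% at row >3. Hes1 was at -1.15 (adjusted p = 0.0104) at the border and -1.42 (adjusted p = 0.000683) at row >3. Dll1 passed as higher in the SI at row >3 (0.96, adjusted p = 0.0171).

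Along the SI gate, 3 receptors and the target Hes1 fell and 2 ligands rose. From centre to row >3, 6 of 26 listed genes fell and 3 rose, beside 5.82% of all genes lower and 7.35% higher. The log2 fold change was -2.18 for Notch1 (adjusted p = 7.34e-05), -1.69 for Notch2 (adjusted p = 0.00569), -2.36 for Notch3 (adjusted p = 0.00834) and -1.38 for Hes1 (adjusted p = 0.000413). Notch3 did not pass without the SI libraries labelled replicate 3 (-1.86, adjusted p = 0.0670). Lfng, which glycosylates the receptors, and Maml2, a coactivator of the RBPJ complex, fell as well. Nrarp was at -0.66 (adjusted p = 0.0522).

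Those that rose included the ligands Dll1 (log2 fold change 1.72, adjusted p = 7.40e-05) and Dll4 (1.11, adjusted p = 0.0145). Atoh1, the secretory cell factor that Notch represses, was at 2.09 (adjusted p = 0.0803). It had 81.8, 270 and 1210 normalised counts in SI centre replicates 1, 2 and 3. The replicate 3 library also carried LI transcripts, and a link between Atoh1 and Olfm4 was not tested. Without the SI libraries labelled replicate 3, 5 of 26 fell and 8 rose, with 8 genes called in both fits, and 4465 of all genes passed against 3518.

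Among 9 genes of NOD and NF-kB signalling, 3 were lower in the SI centre than in the LI centre, beside 0.805% of all genes. They were Nfkbia, the NF-kB inhibitor (log2 fold change -1.31, adjusted p = 0.00285), Tnfaip3, a deubiquitinase that limits the pathway (-1.30, adjusted p = 0.0196), and Nfkb2, a subunit (-1.12, adjusted p = 0.0456). From SI centre to row >3 Nod1, a receptor of bacterial peptidoglycan, fell by 1.49 on the log2 scale (adjusted p = 0.000264), whereas Nfkb2 and Tnfaip3 rose by 1.41 and 1.03 (adjusted p = 0.00207 and 0.0193), beside 5.82% of all genes lower and 7.35% higher.

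Other genes with an olfactomedin domain were detected in part. Of 12 listed genes, 10 had any count, and Myoc and Gldn had none. The adhesion receptor Adgrl2 (Lphn2 in the count table) had a mean of 1036 normalised counts in the SI centre and 467 in the LI centre, and the related Adgrl1 (Lphn1 in the table) 414 and 432. Olfml2a had 34.0 and 15.4, Olfm1 19.3 and 29.3, Adgrl3 6.83 and 28.2, and Olfml3 2.37 and 6.98. Olfm2, Olfm3, Olfml1 and Olfml2b did not exceed 7.79 in any group mean.

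None of the 10 passed between the centres by edgeR, beside 1.99% of all genes. At an unadjusted p under 0.05, 1 was higher and 1 lower, and DESeq2 called none. Without the SI libraries labelled replicate 3, Adgrl2 was higher in the SI (log2 fold change 1.41, adjusted p = 2.78e-05). In that fit 2854 of all genes passed. From SI centre to row >3, 1 of the 10 fell, Adgrl1, by 1.88 on the log2 scale (adjusted p = 0.000155), beside 5.82% of all genes. DESeq2 called 2 of the 10 lower, where 4177 of all genes passed. Without the SI libraries labelled replicate 3, 3 were lower by edgeR, where 4465 of all genes passed.

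Likeness of pattern was measured as Pearson's r with Olfm4 of log2(normalised count + 1), for genes with a mean of at least 100 normalised counts. It is a description over libraries that share groups and depth. Over all 18 libraries and 10231 genes, the 10 most alike included Fbln1 (r = 0.969), Slco3a1 (0.963), Slc28a2 (0.949), Gm15284, Defa5, Defa22, Far2, Dclk2 and Defa26 (0.946). Defa5, Defa22 and Defa26 are alpha-defensin genes of Paneth cells, near-identical copies among which reads can be split. The others included Fbln1, an extracellular matrix protein, Slco3a1, an organic anion transporter, and Slc28a2, a nucleoside transporter.

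Fbln1 had means of 796, 595 and 370 normalised counts at SI centre, border and row >3 and of 75.0, 80.2 and 49.5 in the LI. Lgr5 ranked only 3339 on this measure (r = 0.252). Without the SI libraries labelled replicate 3, 5 of the 10 were still among the 10 most alike, Fbln1 at rank 1 (r = 0.985).

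Over the 9 SI libraries and 10290 genes the pattern most alike was that of Smoc2 (r = 0.998). It had 5570, 5302 and 2145 normalised counts at the centre, 2852, 4043 and 308 at the border, and 908, 1238 and 131 at row >3, so that replicate 3 was lowest and replicate 2 above replicate 1 outside the centre, as for Olfm4. Amica1 (0.994), Clic6 (0.993), Igfbp4 (0.992), Lphn2 (0.989), Slco3a1, Dock11, Bex4, Tbc1d9 and Nadk2 (0.987) followed. Lgr5 ranked 157 (r = 0.962). Of the genes alike over 18 libraries 1 returned, Slco3a1.

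Over the 6 SI libraries without replicate 3, none of these 10 genes stayed among the 10 most alike, although their r remained high among near ties. Smoc2 was then at rank 19 with r = 0.996, Igfbp4 had r = 0.990, and Lgr5 had r = 0.984 at rank 220 of 10156 genes. The genes at ranks 1 to 3 over these 6 libraries, named after their values were seen, were 4933406C10Rik, Hook1 and Cd44, with r of 0.999 each.

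Paneth cell transcripts moved with Olfm4 between the sites. The sum of 9 Paneth markers was 39774 to 189454 normalised counts in SI centre libraries, 11788 to 140889 at the border and 4703 to 105977 at row >3, and did not exceed 245 in any LI library. At the centre 5 of the 9 passed as higher in the SI, beside 1.19% of all genes, and all 9 were higher at an unadjusted p under 0.05 and by DESeq2. Along the SI gate the sum went from centre to row >3 from 39774 to 72984 in replicate 1, from 189454 to 105977 in replicate 2 and from 42676 to 4703 in replicate 3, so that replicates differed in direction. None of 9 passed from centre to row >3 by edgeR, 0 at an unadjusted p under 0.05 and 0 by DESeq2, and their median log2 fold change was -0.60. Absorptive cell markers rose there, 6 of 9 beside 7.35% of all genes, with a median log2 fold change of 2.02. The part of either cell type in the Olfm4 values was not tested.

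In the SI libraries labelled replicate 3 Olfm4 stood at 21.6%, 2.61% and 3.24% of the mean of the other SI replicates at centre, border and row >3. Lgr5 stood at 51.5%, 8.62% and 12.5%, and the median of the stem cell markers at 54.8%, 34.3% and 61.2%. Paneth markers stood at 37.7%, 7.65% and 5.11%, but at the centre replicate 1 was lower still, at 33.2%. Notch pathway genes were at 112%, 95.6% and 87.3%.

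The reduction of Olfm4 was thus larger than that of Lgr5 at each level in these libraries, and its size differed between the gates. The reduction was least at the centre, where the median LI marker was also lowest, at 54.4% of the LI mean. The border and row >3 libraries of replicate 3 held 1030 and 194 normalised counts of Olfm4, above the highest LI library at 79.4. Whether LI cells in these libraries account for the lower Olfm4 was not tested.

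**Figure D5:**
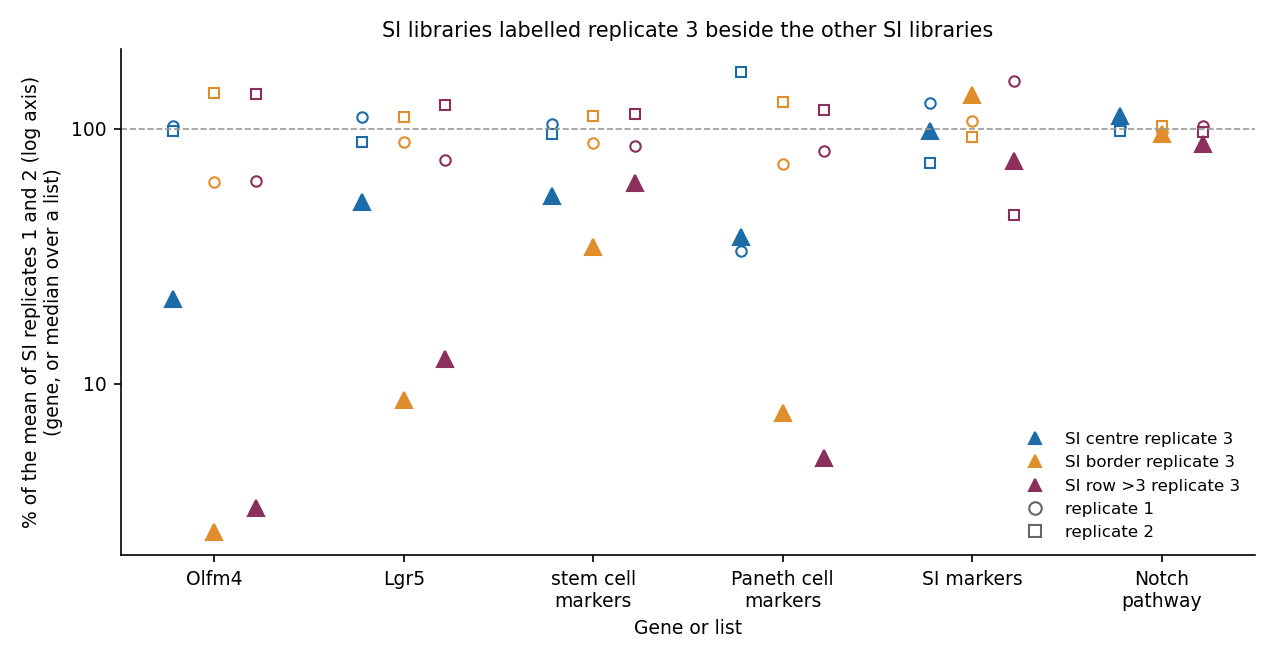
Level in each SI library as a percentage of the mean of SI replicates 1 and 2 at the same Lgr5 level (log axis), for Olfm4, Lgr5 and the median of 4 gene lists; filled triangles are replicate 3, open symbols replicates 1 and 2. Olfm4 in replicate 3 lies at 21.6%, 2.61% and 3.24%, below Lgr5 at every level, while SI markers and Notch pathway genes lie between 75.1% and 136%.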

How the data were processed

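Sorted Epcam+ Lgr5-GFP+ cells were sequenced as SMART-Seq Stranded paired-end libraries. The authors trimmed the reads and used STAR for alignment to mm10 and for gene counts, and the raw count table they deposited was analysed; the sources used here do not give the annotation release or strand setting of the counting. They also deposited a signal table of counts divided by 1 DESeq2 size factor per library, which holds 24814 genes; the division was checked and extended to all genes. No column was left unmapped. Here edgeR 4.0.16 (R 4.3.3; TMM factors, robust quasi-likelihood fit, 6 groups, 18 libraries) was run on the raw counts of 26717 genes with a mean above 0, with Benjamini-Hochberg adjustment over all of them and a threshold of 0.05. The study used DESeq2, which is an alternative here (1.42.0). Scripts were tested on simulated data. Exact permutation tests used Python 3.11.15 with scipy 1.17.1. Promoter sequence came from RefSeq and gene models from GENCODE M21, in which 42462 identifiers were found.

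Replicate numbers pair libraries within a site: deviations from group means of same-numbered libraries correlated at 0.357 to 0.783 in the SI and 0.444 to 0.683 in the LI (9 pairs each, 10232 genes), but at -0.0296 to 0.333 across sites.

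Olfm4 and the gene lists were chosen with earlier results of these data known. Named were Olfm4, the 10 genes most alike over all and over SI libraries, 10 preset list genes (Lgr5, Ascl2, Smoc2, Gkn3, Notch1, Dll1, Dll4, Hes1, Nrarp and Atoh1), detected olfactomedin genes, list genes that passed the test, and genes overlapping Olfm4. Alternatives were DESeq2, other filters, scalings and fits, the replicate block, other pseudocounts and leaving out libraries; the legacy quasi-likelihood fit, DESeq2 or the block without SI replicate 3, and list counts without it were added after seeing the data. Some genes that the rule names are not reported here.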

Additional observations from a re-analysis of the deposited data

How the results depend on the processing

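Olfm4 kept its direction between the sites in all 17 alternatives of each comparison, with log2 fold changes of 10.07 to 12.05 at the centre, 10.26 to 11.98 at the border and 11.42 to 15.02 at row >3, and adjusted p values up to 0.0815, 0.149 and 0.112. The calls were lost at the centre (10.59) and the border (11.37) when only the groups compared were fitted. At all levels they were lost without some single LI libraries; over all single libraries left out, SI and LI, values ran from 10.07 to 12.05, 10.26 to 11.92 and 11.42 to 15.02. These fits hold fewer libraries; the cause was not tested further.

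For SI row >3 against centre the call was gained with a non-robust fit (-3.88), the replicate block (-4.77), the replicate block within site (-4.75), without the SI libraries labelled replicate 3 (-3.75), and without them and with the block (-3.90). For SI row >3 against border it was gained with the replicate block within site (-2.56), without those libraries (-2.69) and without them and with the block (-2.68). By DESeq2 without those libraries neither passed (-3.75, adjusted p = 0.137, and -2.72, adjusted p = 0.356). LI row >3 against centre passed in DESeq2 without those libraries (-6.00). The difference between sites for border against centre changed sign under the replicate block (-0.28), the replicate block within site (-0.50) and without single libraries (-0.68 to 1.36); it passed in none. The replicate block changed no other call. The Olfm4 to Lgr5 ratio changed sign between LI row >3 and border with a pseudocount of 0.5 (-0.20) and between LI row >3 and centre with a pseudocount of 5 (1.11), where Olfm4 is near 0; the other 7 ratio differences kept their sign.

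Numbers of genes passing moved more than Olfm4 did: 180 to 3472 at the centre between sites (532 in the fit reported), 138 to 3315 at the border (468), 379 to 3579 at row >3 (1092), 1973 to 6201 from SI centre to row >3 (3518), 0 to 3284 from SI border to row >3 (429), 0 to 641 from SI centre to border (3), 0 to 1169 from LI centre to row >3 (5), 0 to 213 from LI border to row >3 (0), 0 to 1 from LI centre to border (0), and 0 to 216 and 0 to 1494 for the differences between sites at border and row >3 (0 and 0). Of the 10 genes most like Olfm4, 5 over 18 libraries and 2 over the SI stayed under Spearman's measure. The LI values rest on few counts, at most 109 in a library, and did not simply follow depth. LI border replicate 3 had 0 Olfm4 counts among 25788950 in all, and LI border replicate 2 had 14 among 15312877.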
